A study of Mus musculus with 31 samples.

Results

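Small heat-shock proteins and chaperones keep the proteins of a muscle fibre folded, and muscle is among the tissues richest in them. The 10 genes described here are given by name: the small heat-shock genes *Hspb1*, *Hspb6*, *Hspb7*, *Hspb8* and *Cryab*, the inducible HSP70 genes *Hspa1a* and *Hspa1b*, their helpers *Hsph1* and *Dnajb1*, and *Hspa5*, the HSP70 of the endoplasmic reticulum (ER). All 10 of the 10 genes were found among the 22609 gene symbols of the count tables.

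Small heat-shock proteins bind unfolding proteins without using ATP and hold them for refolding or removal. HSP70 proteins then refold them in cycles of ATP use, in which J-domain proteins such as *Dnajb1* deliver the client and exchange factors such as *Hsph1* reset the cycle. Heat shock factor 1 drives the inducible genes of this set when unfolded protein builds up in the cytosol, whereas *Hspa5* is a target of the unfolded protein response of the ER.

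The study asked which genes of the masseter muscle (MM), a muscle that closes the jaw, change while pain after muscle injury or inflammation starts, resolves or persists. MM was injected with complete Freund's adjuvant (CFA, an oil with killed mycobacteria that causes inflammation), with collagenase type 2 (Col, an enzyme that cuts collagen and so damages the tissue) or with vehicle, and poly(A) RNA of whole muscle was sequenced from 31 male C57BL/6J mice, with 1 library per mouse. Of the 9 mice in the CFA experiment, 3 were sampled at 1d, 3 at 5d and 3 had received vehicle. The Col experiment held 4 mice each of the 0.2U groups labelled 1C and RPC, whose days the labels do not give, 4 mice at 2d, 3 mice at 6d and 4 mice at 12d post-Col at 10U, and 3 vehicle mice with which all 5 Col groups were compared. The labels name no separate vehicle group for the 6d mice.

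The libraries held 14843778 to 29076671 gene-assigned reads (median 20834472). Levels of a gene are given as CPM (its count divided by the count of the whole library, with edgeR's TMM scaling over all 31 libraries), and as RPKM, which also divides by gene length, where levels of different genes are compared. The 8 fibre markers were abundant in every library, so the labelled tissue was present. The summed level of 7 salivary gland markers ranged from 11.1 to 296264 CPM between libraries and reached 149369 CPM in 1 vehicle mouse of the Col experiment, and all 7 markers were detected in each group. In all 11 libraries of the 10U groups the share of reads listed as ambiguous (overlapping more than 1 gene) was 0.331% to 0.399%. It was 0.0758% to 0.138% in the other 20 libraries, vehicle included. Of 13510 genes with a mean over 1 CPM, 114 (0.844%) had every 10U library above or below every other library, and none of the 10 chaperone genes was among them. The comparisons of 10U groups with vehicle cross this divide and those between 10U days do not, and its part in the results was not tested. At 2d post-Col, mouse 4 had the lowest value of its group for all 10 genes, and results at 2d are given with and without it. It was singled out by its values of these same genes, after they were seen. Results without mouse 4 are thus a description and not a separate test. As in any bulk sample, fewer cells of a type and less RNA per cell cannot be told apart.

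The stretch of DNA before the start of a heat-inducible gene often carries heat shock elements, in which GAA units alternate with their reverse TTC. RefSeq promoters of 300 bases (build GRCm38.p6, 250 before to 50 after the start) were found for 9 of the 10 genes, the exception being *Cryab*. The 3-unit element GAANNTTCNNGAA, searched on both strands, was in 0.603% of 32851 promoters, and *Hsph1* alone of the 9 genes held it, as TTCTGGAAAGTTC at +36 from the start. The shorter GAANNTTC, which the 3-unit element contains, was in 7.86% and TTCNNGAA in 8.52% of promoters, and 6 of the 9 genes held at least 1 of them. *Hspa1a* and *Hspa1b* lie next to each other on chromosome 17, and their promoters were identical at 296 of 300 bases. The ER stress response element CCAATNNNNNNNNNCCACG was in 0.119% of promoters and, among the 9 genes, in *Hspa5* only, at -65. *Hspb7* and *Dnajb1* held none of these motifs. The 250 bases before the start are shown for 5 genes with a match there and for *Hspb7* as 1 without, so that they can be compared, with matches in capitals (the 3-unit match of *Hsph1* lies past the start and is not in the stretch), each 5′ to 3′ on the strand of its gene. They lie at chr17:34972157-34972406 (minus strand) for *Hspa1a*, chr17:34959239-34959488 (minus) for *Hspa1b*, chr5:149636337-149636586 (minus) for *Hsph1*, chr2:34771840-34772089 (plus) for *Hspa5*, chr5:135887669-135887918 (plus) for *Hspb1* and chr4:141420529-141420778 (plus) for *Hspb7*.
Hspa1a: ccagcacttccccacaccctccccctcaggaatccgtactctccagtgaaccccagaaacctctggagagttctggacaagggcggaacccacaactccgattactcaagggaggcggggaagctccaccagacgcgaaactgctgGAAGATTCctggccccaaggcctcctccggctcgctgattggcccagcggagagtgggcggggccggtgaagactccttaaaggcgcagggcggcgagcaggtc
Hspa1b: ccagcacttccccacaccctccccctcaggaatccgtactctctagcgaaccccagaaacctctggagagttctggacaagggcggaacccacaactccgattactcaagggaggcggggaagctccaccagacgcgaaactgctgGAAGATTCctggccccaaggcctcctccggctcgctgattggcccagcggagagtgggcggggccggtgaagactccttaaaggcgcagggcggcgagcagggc
Hsph1: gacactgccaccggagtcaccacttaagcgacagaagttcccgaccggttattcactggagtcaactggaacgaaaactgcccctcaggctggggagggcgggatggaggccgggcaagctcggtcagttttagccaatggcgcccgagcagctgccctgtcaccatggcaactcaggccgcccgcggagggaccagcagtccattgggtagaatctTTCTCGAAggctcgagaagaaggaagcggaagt
Hspa5: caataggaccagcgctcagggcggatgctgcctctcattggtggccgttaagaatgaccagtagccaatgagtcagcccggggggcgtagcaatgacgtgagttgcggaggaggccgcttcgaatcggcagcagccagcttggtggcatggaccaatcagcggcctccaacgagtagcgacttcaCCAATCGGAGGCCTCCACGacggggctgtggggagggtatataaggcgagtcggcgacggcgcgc
Hspb1: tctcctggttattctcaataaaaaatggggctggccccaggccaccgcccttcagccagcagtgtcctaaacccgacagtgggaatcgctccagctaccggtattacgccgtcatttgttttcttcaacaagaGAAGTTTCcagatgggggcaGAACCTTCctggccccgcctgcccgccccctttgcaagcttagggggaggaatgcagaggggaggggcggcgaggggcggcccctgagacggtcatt
Hspb7: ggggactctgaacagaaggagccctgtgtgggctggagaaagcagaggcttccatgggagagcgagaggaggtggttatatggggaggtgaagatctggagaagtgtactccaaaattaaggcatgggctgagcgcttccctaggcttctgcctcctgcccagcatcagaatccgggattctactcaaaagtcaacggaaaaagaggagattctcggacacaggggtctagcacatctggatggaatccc
A match is a stretch of letters and not a measured binding site, and no binding data were analysed here.

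In vehicle-treated MM 4 of the 5 small heat-shock genes were the most abundant of the 10 per length, *Hspb1* being the exception, and the inducible HSP70 genes were the least abundant. In the Col vehicle mice *Hspb6*, which binds actin-linked partners in muscle, had a level of 687 ± 224 RPKM (SD, n = 3) and *Cryab*, the lens crystallin that guards desmin and titin in muscle, of 517 ± 132 RPKM. *Hspb8*, the partner of BAG3 in chaperone-assisted autophagy, followed at 308 ± 48.3 RPKM and *Hspb7*, a small heat-shock protein of heart and skeletal muscle, at 150 ± 79.9 RPKM. The ranges of *Hspb6* and *Cryab* overlapped between mice. Within each mouse *Hspb6* was the higher, at 919 against 659, 472 against 398 and 670 against 494 RPKM. The ranges of *Hspb7*, from 81.8 RPKM, and *Hspa5*, up to 82.2 RPKM, overlapped as well, these 2 values being those of mouse 2. Differences between genes were not tested. *Hspa5* stood at 74.7 ± 7.60 RPKM, *Hspb1* (HSP27, which binds actin) at 39.4 ± 13.8 RPKM, *Hsph1* (HSP105) at 14.6 ± 3.97 RPKM and *Dnajb1* (HSP40) at 10.8 ± 1.02 RPKM. *Hspa1a* and *Hspa1b* lay at 1.49 ± 0.514 and 1.43 ± 0.761 RPKM and could not be ranked against each other. In the CFA vehicle mice the order was the same except that *Hspb1*, at 78.8 ± 29.4 RPKM, and *Hspa5*, at 78.5 ± 24.1 RPKM, changed places. None of the 10 genes passed the test between the vehicle groups (0.0426% of 14070 genes did), with 2 of 10 at an unadjusted p under 0.05, against 2.32% of all genes, and none called by DESeq2. The lowest unadjusted p was that of *Hspb1*, which was 1.96-fold lower in the Col vehicle mice (log2 fold change -0.97, SE 0.370).

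Reads on *Hspa1a* and *Hspa1b* are uncertain between the pair. Windows of 50 bases, the read length, were compared with those of all other protein-coding genes. A match was found for 61.0% of *Hspa1a* and 61.2% of *Hspa1b*, and the gene most often matched was the other of the pair. Reads that align to more than 1 place were not counted. Their ratio, *Hspa1a* to *Hspa1b*, stayed between 0.516 and 1.56 over the 31 libraries. In mm9, the build of the authors' alignment, *Hspa1a* lies at chr17:35106144-35109069 and *Hspa1b* at chr17:35093381-35096183, both on the minus strand, *Hspb7* at chr4:140976694-140981226 (plus), *Hspb8* at chr5:116858500-116872873 (minus) and *Hspa5* at chr2:34627490-34632051 (plus). *Hspb6* (chr7:31337197-31340462, plus) shares exon sequence with *BC053749* and *Lin37* on the opposite strand, and whether reads were counted by strand is not given in the sources used here.

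At 2d post-Col at 10U, 3 of the 4 mice held at least 50.0 CPM of each inducible HSP70 gene, against at most 6.25 CPM in vehicle, and the other mouse did not, and none of the 10 genes passed the test. *Hspa1a* was at 164, 50.0, 85.2 and 4.98 CPM in mice 1 to 4, against 2.96, 4.19 and 5.95 CPM in the vehicle mice. *Hspa1b* was at 168, 59.9, 91.9 and 6.08 CPM, against 2.00, 6.25 and 3.80 CPM. Mouse 4 lay within the vehicle range for both genes and the other 3 mice lay far above it. The log2 fold change was 4.07 (SE 1.02) for *Hspa1a* (16.8-fold, adjusted p = 0.0601) and 4.32 (SE 1.02) for *Hspa1b* (20.0-fold, adjusted p = 0.0560).

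The helpers of HSP70 had the same order of mice at a smaller scale. *Hsph1*, the exchange factor, was at 337, 262, 327 and 96.7 CPM at 2d, against 88.2, 85.3 and 135 CPM in vehicle (log2 fold change 1.26, SE 0.433, adjusted p = 0.0950). *Dnajb1*, the J-domain protein, was at 57.7, 44.9, 51.9 and 18.8 CPM, against 24.5, 26.3 and 29.5 CPM (0.65, SE 0.348, adjusted p = 0.223). Mice 1 to 3 were above every vehicle mouse for both genes, and mouse 4 was below every vehicle mouse for *Dnajb1* and within their range for *Hsph1*.

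**Figure D1:**
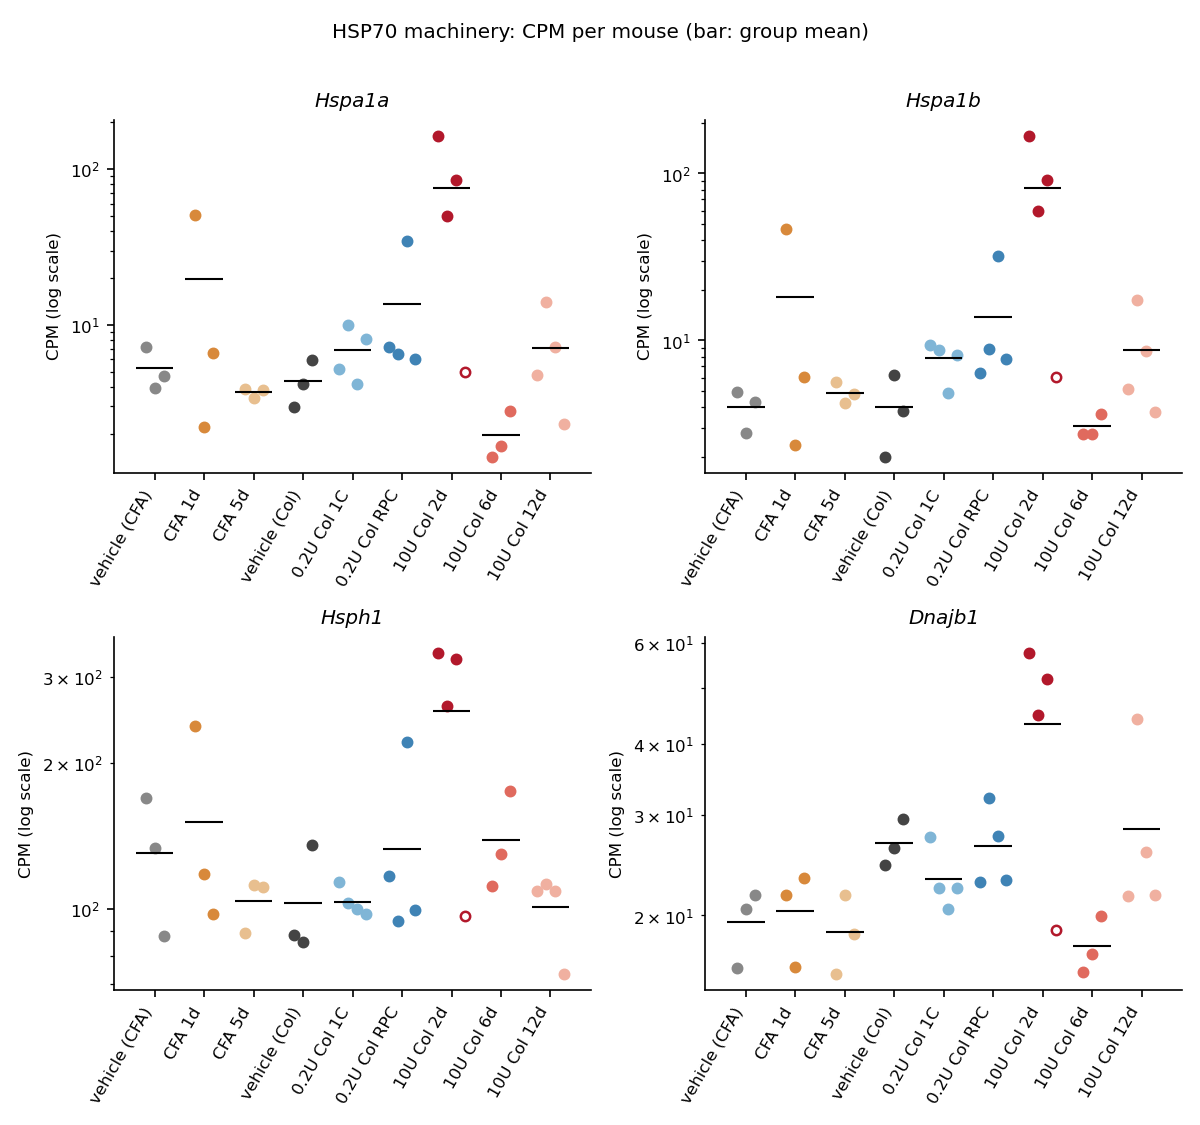
CPM on a log scale (y axis) of *Hspa1a*, *Hspa1b*, *Hsph1* and *Dnajb1* for each mouse of the 9 groups (x axis). Each point is a mouse, bars are group means, and the open point is mouse 4 at 2d post-Col. Mice 1 to 3 at 2d post-Col lie at 50.0 to 164 CPM of *Hspa1a*, and mouse 4 at 4.98 CPM lies among the vehicle mice.

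Small heat-shock genes were split. *Hspb7* was at 3827, 2884, 3204 and 477 CPM at 2d, against 659, 226 and 360 CPM in vehicle, a log2 fold change of 2.59 (SE 0.738, adjusted p = 0.0706). *Cryab* was at 3343, 2164, 3367 and 582 CPM, against 781, 472 and 585 CPM (1.90, SE 0.603, adjusted p = 0.0830). *Hspb1* was at 140, 97.4, 120 and 38.1 CPM, against 52.5, 44.6 and 24.9 CPM (1.24, SE 0.444, adjusted p = 0.103). For these 3 genes mice 1 to 3 exceeded every vehicle mouse and mouse 4 lay within the vehicle range. *Hspb8*, at 354 to 998 CPM, differed from vehicle by 0.18 on the log2 scale (SE 0.356) and *Hspb6*, at 1178 to 1543 CPM, by -0.19 (SE 0.323), and for both the 2d and vehicle mice overlapped.

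*Hspa5* was the only 1 of the 10 genes at 2d whose 4 values all lay above those of the vehicle mice. It was at 2162, 1643, 1834 and 423 CPM at 2d, against 235, 289 and 263 CPM in vehicle, a log2 fold change of 2.49 (SE 0.541, 5.62-fold, adjusted p = 0.0532). Groups did not overlap for 24.2% of all genes tested.

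In all, 0 of the 10 genes passed edgeR's test at 2d post-Col, where 2.22% of 14373 genes did. At an unadjusted p under 0.05 there were 7 of 10, against 33.3% of all genes, and the median log2 fold change was 1.58, against 0.02 over all genes. Without mouse 4, 8 of the 10 passed, all but *Hspb6* and *Hspb8*, with adjusted p from 0.000518 (*Hspa5*, log2 fold change 2.80) to 0.00722 (*Hspb1*, 1.51). In that fit 2538 genes passed as higher and 2605 as lower, of 14160. With all 4 mice, DESeq2 called 7 of 10 (*Hspb1*, *Hspb7*, *Cryab*, *Hspa1a*, *Hspa1b*, *Hsph1* and *Hspa5*). It called 1687 genes higher and 1635 lower, of 14373. Both a fit over all 31 libraries and the comparison with both vehicle groups pooled also called 7, with *Dnajb1* in place of *Hspb1*. The first called 2679 genes higher and 2169 lower, of 14373, and the second 2596 and 2447, of 14663. Calls thus rose over all genes as well as among the 10. Mouse 4 was singled out by its low values of the 10 genes, so the p-values without it do not test them afresh. When each other mouse was left out in turn, none of the 10 passed.

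The 10 genes together took 1.45%, 1.05%, 1.53% and 0.294% of the reads counted on genes in mice 1 to 4 at 2d, against 0.436%, 0.206% and 0.364% in vehicle mice. Other values set mouse 4 apart as well. The summed level of 6 immediate-early genes, which respond within minutes to stress and activity, was 749, 662, 835 and 191 CPM in mice 1 to 4, against 189, 199 and 295 CPM in vehicle. The summed fibre markers were at 32222, 39868, 38998 and 62226 CPM, against 141221, 153543 and 102601 CPM in vehicle, so all 4 mice were below vehicle and mouse 4 the least so. Salivary gland markers were at 71911, 87918, 49.4 and 124191 CPM, so they too were highest in mouse 4, while mouse 3 was far below the others. The library of mouse 4 held 27573542 gene-assigned reads, against 15759560 to 16753167 in mice 1 to 3. Its share of reads not uniquely aligned was 39.5%, against 44.9% to 46.5%. The part of these differences in the values of mouse 4 was not tested.

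Per 1000 reads on the 8 fibre markers, all 10 genes at 2d lay above vehicle in all 4 mice. This holds mouse 4 too, but 77.1% of all tested genes had groups that did not overlap on this scale. The 10 genes were at 2.90 to 74.8 times the vehicle mean, with a median of 10.99, against a median of 3.26 over all genes. *Hspa1b* stood furthest from vehicle, at 2.29 ± 2.16 reads (SD, n = 4), against 0.0307 ± 0.0144 in vehicle (n = 3), and *Hspb6* least far, at 35.8 ± 11.7 reads, against 12.3 ± 4.57.

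**Figure D2:**
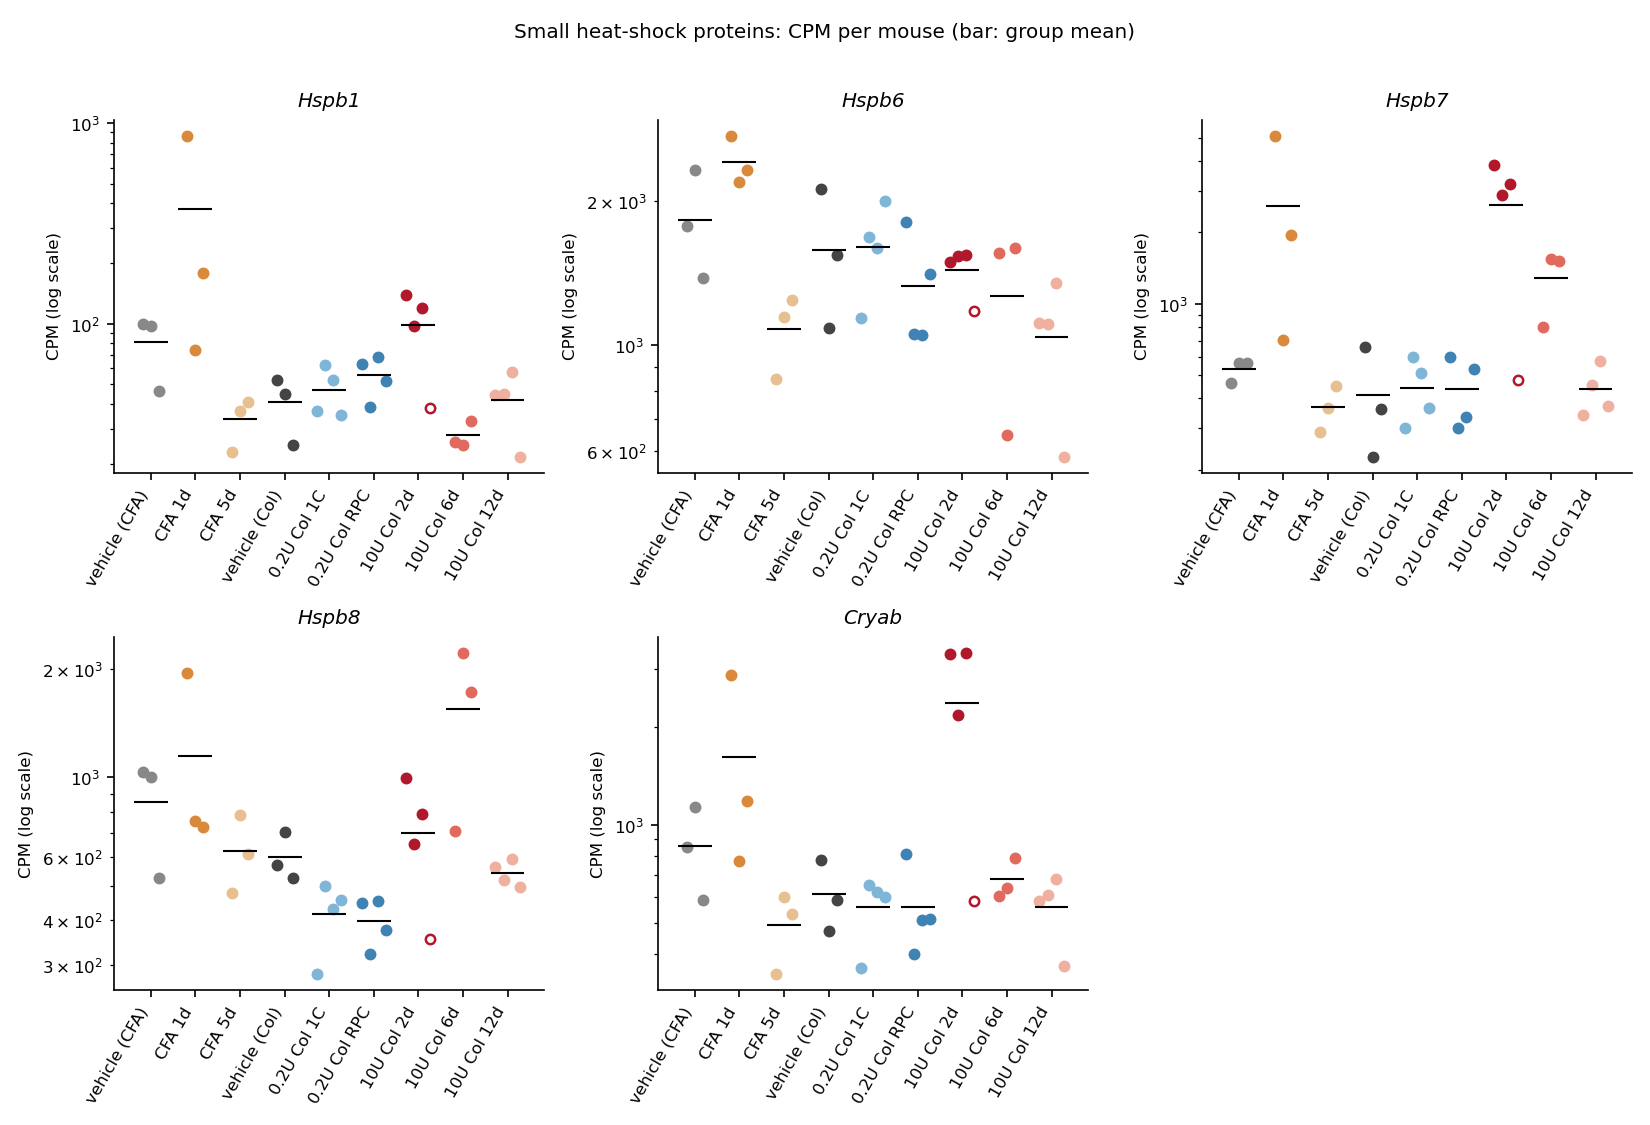
CPM on a log scale (y axis) of the 5 small heat-shock genes for each mouse of the 9 groups (x axis), with bars at group means and an open point for mouse 4 at 2d post-Col. *Hspb7* is at 2884 to 3827 CPM in mice 1 to 3 at 2d and at 801 to 1544 CPM at 6d, above the 226 to 659 CPM of vehicle, while *Hspb6* overlaps vehicle at both days.

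The ER genes of the other chaperone lists were placed like *Hspa5*. Of 23 ER chaperones and genes of the unfolded protein response, 22 had a positive log2 fold change at 2d post-Col, with a median of 1.30, and 4 passed the test, all higher, against 1.14% of all genes. *Sdf2l1*, an ER protein that helps J-domain proteins, rose from 5.34 ± 2.33 CPM in vehicle (SD, n = 3) to 50.2 ± 21.2 CPM (n = 4), with a log2 fold change of 3.21 (SE 0.482, adjusted p = 0.0337). *Creld2*, an ER stress gene with disulfide isomerase activity, rose from 12.9 ± 4.13 to 74.5 ± 29.98 CPM (2.49, SE 0.417, adjusted p = 0.0408). *Manf*, a secreted ER stress protein, rose from 32.2 ± 11.03 to 177 ± 77.0 CPM (2.42, SE 0.466, adjusted p = 0.0483). Mouse 4 was again the lowest, at 20.5, 30.3 and 61.5 CPM. It was above every vehicle mouse for each of the 3 genes, but only genes whose groups did not overlap were named. Its place above vehicle is thus fixed by that choice and adds no support.

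**Figure D3:**
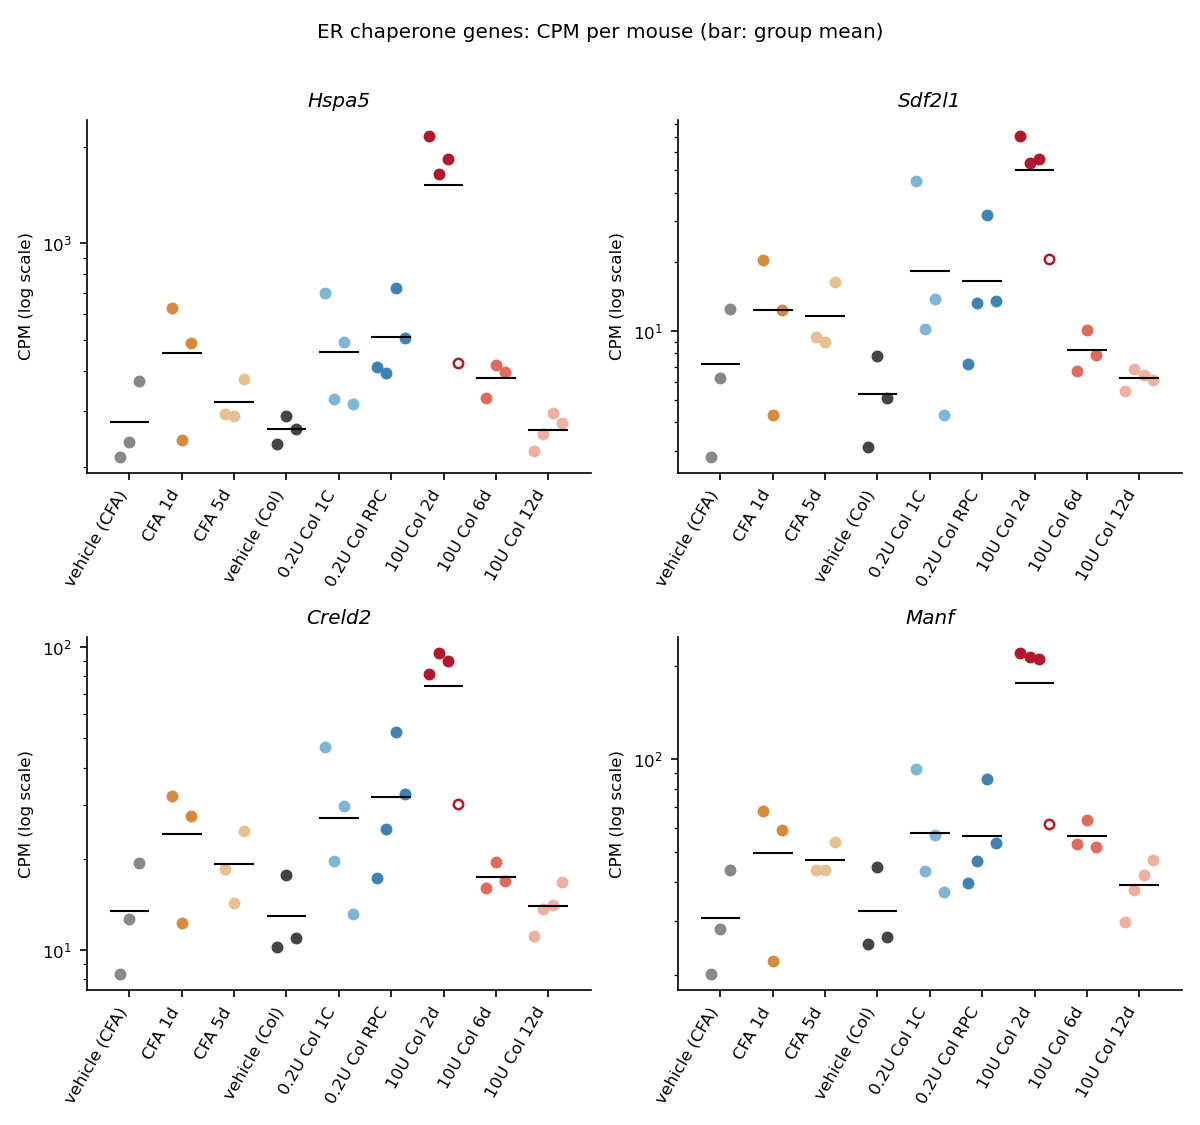
CPM on a log scale (y axis) of *Hspa5*, *Sdf2l1*, *Creld2* and *Manf* for each mouse of the 9 groups (x axis), with bars at group means and an open point for mouse 4 at 2d post-Col. All 4 mice at 2d are above all Col vehicle mice for each gene, with *Hspa5* at 423 to 2162 CPM against 235 to 289 CPM. For *Sdf2l1*, *Creld2* and *Manf* this was a condition of being named.

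Salivary glands are rich in ER chaperones, so *Hspa5* was set beside their markers. Mouse 3 at 2d had 49.4 CPM of summed salivary gland markers and 1834 CPM of *Hspa5*. Vehicle mouse 2 had 149369 CPM of these markers and 289 CPM of *Hspa5*, and vehicle mouse 1 had 87.0 CPM of them and 235 CPM of *Hspa5*. In the CFA vehicle mice, mouse 3 had 14918 CPM of the markers and 373 CPM of *Hspa5*, against 104 and 112 CPM of the markers and 215 and 240 CPM of *Hspa5* in mice 1 and 2. In the 0.2U RPC group, with 26219 to 296264 CPM of these markers, *Hspa5* was at 394 to 722 CPM. The part of salivary tissue in these values was not tested.

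**Figure D4:**
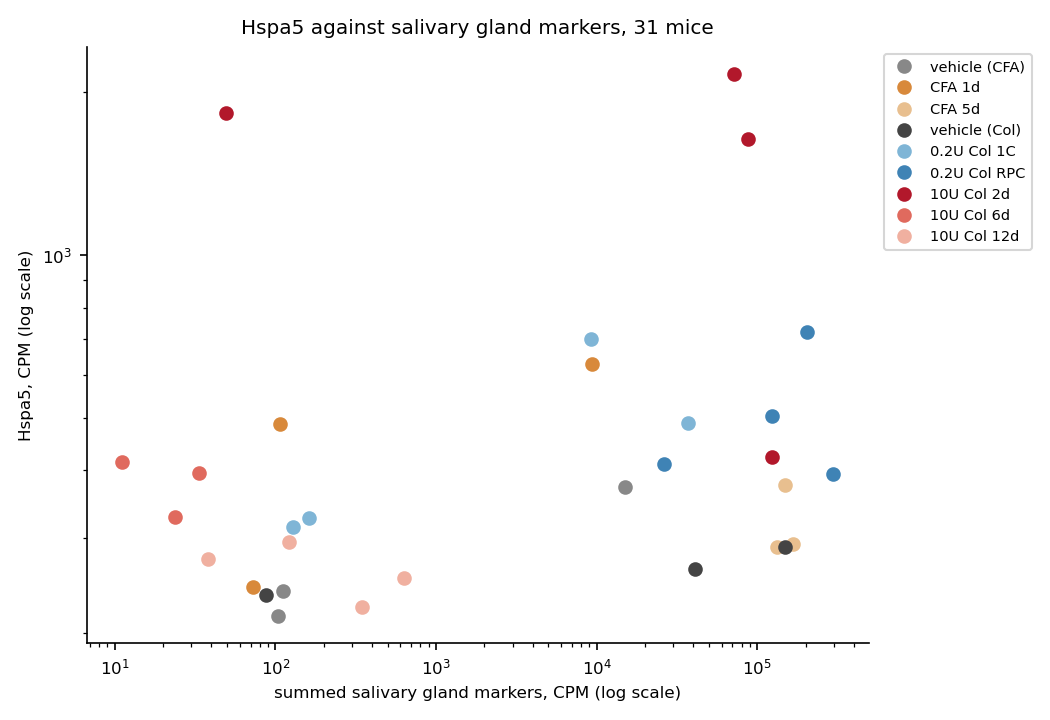
*Hspa5* (y axis, CPM, log scale) against the summed level of 7 salivary gland markers (x axis, CPM, log scale), 1 point per mouse, coloured by group. The 3 points at or above 1643 CPM of *Hspa5* are mice at 2d post-Col, with 49.4, 71911 and 87918 CPM of the markers.

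Of the 88 genes on the 9 other chaperone lists, the 23 ER genes included, 86 were tested at 2d post-Col, 5 passed as higher and 1 as lower, against 1.14% and 1.08% of all genes. Of the 5 that rose, 4 were ER genes and the other was *Hspa13*, a member of the HSP70 family, with a log2 fold change of 1.06 (SE 0.207, adjusted p = 0.0483), which is named here after its values were seen. The 1 that fell was *Stub1*, which encodes CHIP, the ubiquitin ligase that marks clients of HSP70 and HSP90 for degradation. *Stub1* was at 26.4 to 33.6 CPM at 2d and 77.1 to 110 CPM in vehicle (log2 fold change -1.58, SE 0.166, adjusted p = 0.00973). It was lower at 6d (-1.72, SE 0.171, adjusted p = 0.00212) and at 12d (-1.78, SE 0.151, adjusted p = 0.00216) as well. All 11 libraries of the 10U groups held 22.9 to 33.6 CPM of *Stub1* and the other 20 libraries 63.6 to 110 CPM. The 10U dose and the divide between libraries described above cannot be told apart for this gene.

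At 6d post-Col at 10U, *Hspb7* and *Hspb8* rose and *Dnajb1* fell, while the inducible HSP70 genes were at or below vehicle. *Hspb7* was at 801, 1544 and 1508 CPM, against 659, 226 and 360 CPM in vehicle (log2 fold change 1.60, SE 0.459, 3.02-fold, adjusted p = 0.0388). *Hspb8* was at 709, 2222 and 1731 CPM, against 571, 705 and 523 CPM (1.35, SE 0.418, 2.55-fold, adjusted p = 0.0480). *Dnajb1* was at 15.9, 17.1 and 20.0 CPM, against 24.5, 26.3 and 29.5 CPM (-0.62, SE 0.174, 1.54-fold lower, adjusted p = 0.0361). The groups did not overlap for these 3 genes and for *Hspa1a* and *Hspa5*, 5 of 10 against 47.2% of all genes, though for *Hspb7* and *Hspb8* mouse 1 lay close above the highest vehicle mouse.

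*Hspa1a* was at 1.42 to 2.82 CPM at 6d, below the 2.96 to 5.95 CPM of vehicle, and its log2 fold change was -1.17 (SE 0.411, adjusted p = 0.0674). *Hspa5* was at 328 to 415 CPM, above the vehicle mice, with a log2 fold change of 0.51 (SE 0.194, adjusted p = 0.0830). *Cryab*, at 602 to 792 CPM, and *Hsph1*, at 111 to 175 CPM, overlapped vehicle. Thus 2 of 10 genes were called higher and 1 lower at 6d, against 14% and 13.3% of the 14281 genes tested, a share near that of all genes. The 3 calls were lost in most fits that left out 1 mouse, as *Hspb7* passed in 1 of 6, *Hspb8* in 1 of 6 and *Dnajb1* in 1 of 6 such fits. Under total counts without scaling, where the median of all genes moved from 0.01 to 0.54, *Dnajb1* was at -0.10. With only libraries under 1000 CPM of salivary gland markers, 3 at 6d against 3 vehicle mice of both experiments, *Hspb7* (1.18, adjusted p = 0.0127) and *Hspa5* (0.71, adjusted p = 0.00727) passed as higher and *Hspb1* (-1.58, adjusted p = 0.00213) and *Hspa1a* (-1.26, adjusted p = 0.0345) as lower, while *Hspb8* (0.83) and *Dnajb1* (-0.22) did not pass. In that fit 4142 of 14173 genes passed as higher and 3786 as lower.

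Regenerating muscle markers were at 2776 to 5006 CPM at 6d, against 348 to 951 CPM in vehicle, fibroblast markers at 12034 to 20755 CPM against 1159 to 6256 CPM, and fibre markers at 33611 to 60405 CPM. Their part in the 6d values was not tested. Per 1000 fibre marker reads, *Hspb7* stood at 28.5 ± 16.0 reads (SD, n = 3) against 3.22 ± 1.62 in vehicle, and *Hspb8* at 35.9 ± 27.3 against 4.58 ± 0.528, which is 8.86 and 7.84 times the vehicle mean beside a median of 2.84 over all genes. *Dnajb1*, called lower in CPM, was at 1.79 times the vehicle mean on this scale. On this scale 83.1% of all genes had groups that did not overlap.

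Of the other chaperone lists at 6d, 13 of 86 genes passed as higher and 9 as lower, against 14% and 13.3% of all genes, so both shares were near the background. *Serpinh1* (HSP47), the ER chaperone of collagen, rose from 194 ± 36.8 CPM in vehicle (SD, n = 3) to 743 ± 195 CPM (n = 3), with a log2 fold change of 1.91 (SE 0.292, adjusted p = 0.00643). *Pdia3*, a disulfide isomerase of the ER, rose from 145 ± 22.8 to 373 ± 64.2 CPM (1.34, SE 0.217, adjusted p = 0.00770), and *Hspb11*, an intraflagellar transport protein despite its name, from 2.24 ± 0.208 to 7.26 ± 0.972 CPM (1.67, SE 0.256, adjusted p = 0.00639). *Dnajb5*, a J-domain protein, fell from 342 ± 66.2 to 124 ± 29.4 CPM (-1.48, SE 0.259, adjusted p = 0.00991), and *Herpud1*, which acts in degradation of ER proteins, from 213 ± 63.0 to 90.1 ± 15.8 CPM (-1.26, SE 0.243, adjusted p = 0.0130). Of the 23 ER genes among the 86, 8 rose and 1 fell, against the same 14% and 13.3%.

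At 12d post-Col the values of all 10 genes overlapped those of vehicle, though single mice lay outside the vehicle range. None passed edgeR's test, where 1.23% of 14176 genes did, none had an unadjusted p under 0.05 (17.4% of all genes did), DESeq2 called none, and the groups overlapped for all 10 (they did not for 17% of all genes). The median log2 fold change was 0.05. The largest was that of *Hspa1b*, 1.15 (SE 0.591, adjusted p = 0.363), which was at 5.15, 17.4, 8.62 and 3.76 CPM, against 2.00 to 6.25 CPM in vehicle. Mouse 2 had the highest *Hspa1a*, at 14.1 CPM, and *Dnajb1*, at 44.2 CPM against 21.6 to 25.8 CPM in the other mice. Vehicle mice held at most 5.95 CPM of *Hspa1a* and 29.5 CPM of *Dnajb1*. *Hspb6* in mouse 4, at 583 CPM, was below the lowest vehicle mouse, at 1085 CPM.

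The days were also compared directly, within the 10U libraries. From 2d to 6d *Hspa1a*, *Hspa1b* and *Hspb1* fell. The log2 fold change was -5.23 for *Hspa1a* (SE 1.10, 37.6-fold lower, adjusted p = 0.0317), -4.70 for *Hspa1b* (SE 0.995, 26.1-fold lower, adjusted p = 0.0326) and -1.80 for *Hspb1* (SE 0.408, 3.48-fold lower, adjusted p = 0.0389). All 4 mice at 2d, mouse 4 included, were above all 3 mice at 6d for these genes and for *Hspa5*, 4 of 10 against 24.1% of all genes. The count of 3 of 10 called lower stands beside 4.05% of 14513 genes. It was 8 without mouse 4 (singled out after its values were seen), all but *Hspb6* and *Hspb8*. It was 0 without 2d mouse 1, without 2d mouse 2 or without any 1 of the 6d mice. *Hspa5* was -1.97 (SE 0.529, adjusted p = 0.0583) and *Hspb8* 1.18 (SE 0.469, adjusted p = 0.159). Salivary gland markers were at 49.4 to 124191 CPM at 2d and 11.1 to 33.6 CPM at 6d. Fibroblast markers were at 3032 to 6513 and 12034 to 20755 CPM, and regenerating muscle markers at 435 to 753 and 2776 to 5006 CPM. The part of these markers in the differences between days was not tested.

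From 6d to 12d *Hspb7* and *Hspb8* fell, by 1.53 (SE 0.307, adjusted p = 0.0171) and 1.49 (SE 0.361, adjusted p = 0.0256) on the log2 scale. *Hspb7* was at 342 to 575 CPM and *Hspb8* at 495 to 593 CPM at 12d, below every 6d mouse, and groups did not overlap for 5 of 10 genes, against 36.3% of all genes. The 2 of 10 called lower stand beside 13% of 14344 genes. *Hspa1a* (1.85, SE 0.601, adjusted p = 0.0545) and *Hspa1b* (1.53, SE 0.518, adjusted p = 0.0617) had values in the other direction. The count fell to 0 without 6d mouse 2, without 12d mouse 1 or without 12d mouse 2. Leaving out 12d mouse 4 gave 3 lower and 4 higher. That mouse had 17839 CPM of fibroblast markers, against 2997 to 5124 CPM in the other 12d mice and 12034 to 20755 CPM at 6d. Regenerating muscle markers were at 2776 to 5006 CPM at 6d and 467 to 1816 CPM at 12d. The part of these markers in the differences from 6d to 12d was not tested.

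**Figure D5:**
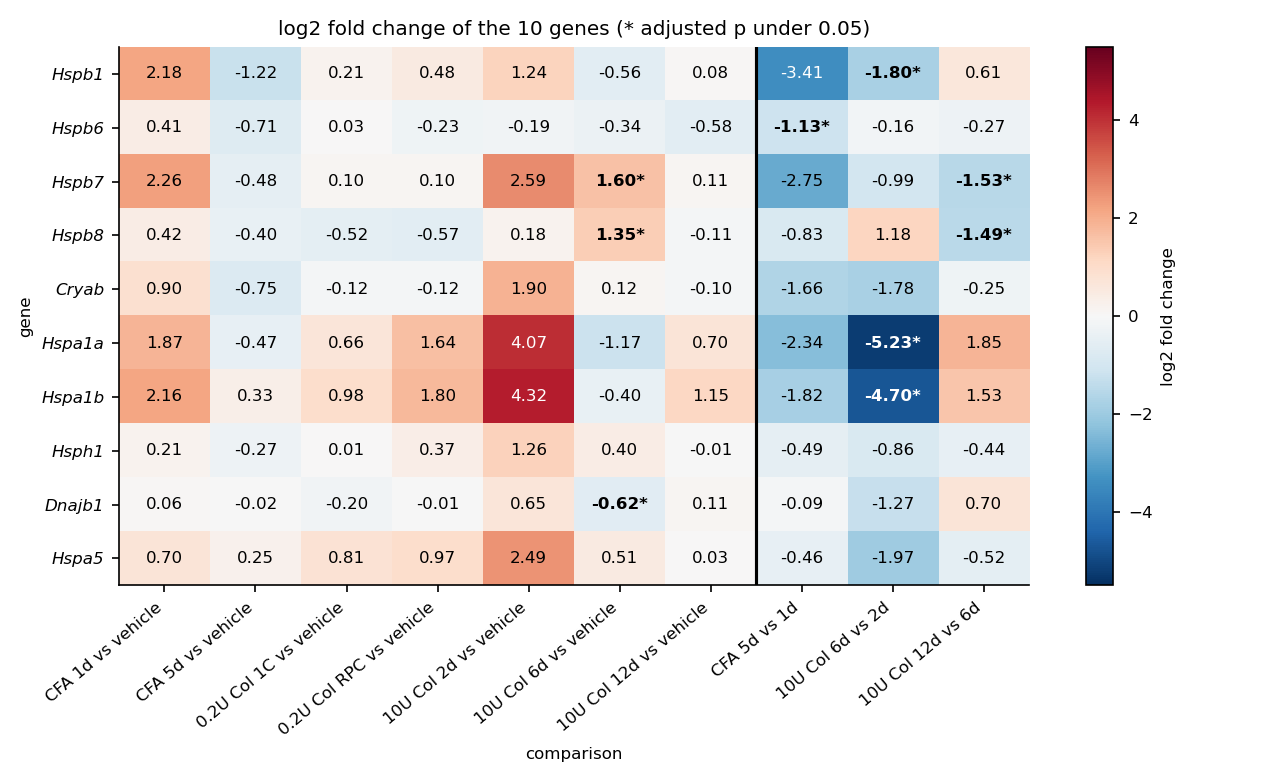
Log2 fold changes of the 10 genes (rows) in the 7 comparisons with vehicle, left of the line, and in 3 comparisons between days (columns), coloured from blue (lower) to red (higher). Bold values with an asterisk passed at an adjusted p under 0.05. *Hspa1a* and *Hspa1b* have the largest values, 4.07 and 4.32 at 2d post-Col and -5.23 and -4.70 from 2d to 6d.

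At 1d post-CFA no gene of the 13944 tested passed edgeR's test (0%), the 10 chaperone genes included. DESeq2 called 1 of the 10, *Hspb7*, as higher, beside 46 of 13944 genes called higher and 10 lower. There were 2 of 10, *Hspb1* and *Hspb7*, at an unadjusted p under 0.05, against 4.22% of all genes. All 10 log2 fold changes were positive, where 51.8% of all genes had a negative one, with a median of 0.80 against -0.01 over all genes. *Hspb7* was at 5098, 705 and 1944 CPM, against 462, 562 and 566 CPM in vehicle (log2 fold change 2.26, SE 0.645, adjusted p = 0.924), and was the only 1 of the 10 whose groups did not overlap, against 6.18% of all genes. Mouse 1 lay far above the other mice, and without it *Hspb7* was at 1.35 (adjusted p = 0.999).

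*Hspb1* was at 866, 73.8 and 179 CPM at 1d post-CFA, against 100.2, 97.3 and 46.3 CPM in vehicle (2.18, SE 0.827). *Hspa1a* was at 50.4, 2.22 and 6.56 CPM against 3.92 to 7.23 CPM, and *Hspa1b* at 46.3, 2.36 and 6.03 CPM against 2.78 to 4.88 CPM. *Cryab* was at 2888, 771 and 1178 CPM, against 855, 1128 and 587 CPM. Mouse 1 was the highest of its group for 9 of the 10 genes, *Dnajb1* being the exception, and mouse 2 was within or below the vehicle range for the inducible HSP70 genes. Without mouse 1 the log2 fold change was 0.68 for *Hspb1*, -0.23 for *Hspa1a* and 0.10 for *Hspa1b*, and 3 of the 10 values were negative (*Hspb8*, *Hspa1a* and *Hsph1*). Immediate-early genes were ordered in the same way, at 682, 229 and 424 CPM. The salivary gland markers were also highest in mouse 1, at 9297 CPM against 72.1 and 107 CPM, and their part in its values was not tested. The difference between the 2d post-Col and the 1d post-CFA effects was tested as an interaction, and none of the 10 genes passed (0.0946% of 14794 genes did). There was 1 of 10 at an unadjusted p under 0.05, *Hspa5*, with a difference of 1.77 (SE 0.695, adjusted p = 0.693), against 6.83% of all genes, and DESeq2 called none.

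At 5d post-CFA, 8 of the 10 genes had a negative log2 fold change, as 52.4% of all genes had, and none passed edgeR's test, where 1.11% of 14026 genes did. There were 3 at an unadjusted p under 0.05 (*Hspb1*, *Hspb6* and *Cryab*), against 14% of all genes. DESeq2 called *Hspb1* and *Hspb6* lower, beside 182 of 14026 genes called lower. *Hspb1* was at 22.9, 36.8 and 40.8 CPM, below the 46.3 to 100.2 CPM of vehicle (log2 fold change -1.22, SE 0.331, adjusted p = 0.140). *Hspb6* was at 849, 1142 and 1239 CPM, against 1770, 2321 and 1382 CPM (-0.71, SE 0.282, adjusted p = 0.319). Groups did not overlap for 4 of the 10 genes, against 19.7% of all genes. Without vehicle mouse 3, which had the lowest *Hspb1*, *Hspb6* and *Cryab* of its group, these 3 genes passed as lower. In that fit 531 of 13819 genes passed as lower. Vehicle mouse 3 had 14918 CPM of salivary gland markers against 104 and 112 CPM in the other vehicle mice, and all 5d mice had 131691 to 166660 CPM, so this tissue and the day cannot be told apart here.

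Between days post-CFA, *Hspb6* fell from 2733, 2191 and 2320 CPM at 1d to the 5d values given above, with a log2 fold change of -1.13 (SE 0.257, adjusted p = 0.0469). All 10 genes had a negative value, as 49.6% of all genes had, and 1 of 10 called lower stands beside 0.99% of 14046 genes. *Hspb1* (-3.41, SE 0.838, adjusted p = 0.0622) and *Hspb7* (-2.75, SE 0.654, adjusted p = 0.0548) did not pass. The call of *Hspb6* was lost without 1d mouse 3 and without any 1 of the 5d mice, and it was kept without 1d mouse 1 or mouse 2. Salivary gland markers were at 72.1 to 9297 CPM at 1d and 131691 to 166660 CPM at 5d. This tissue and the day cannot be told apart in this comparison either.

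The 6d post-Col effect was set against the 5d post-CFA effect in an interaction test. *Hspb7* differed, with a difference of 2.08 (SE 0.537, adjusted p = 0.0323) between its log2 fold changes of 1.60 and -0.48, and was the only 1 of the 10 to pass as higher, against 4.34% of 14892 genes. *Hspb8* had a difference of 1.74 (SE 0.545, adjusted p = 0.0621). The call of *Hspb7* was lost without CFA vehicle mouse 2, 5d post-CFA mouse 1 or 2, or 6d post-Col mouse 2 or 3, and in the fit over all 31 libraries, which called *Hspb8* instead. The days of these groups are close and not equal, and each effect rests on its own vehicle mice. Salivary gland markers summed to 11.1 to 33.6 CPM at 6d post-Col and 131691 to 166660 CPM at 5d post-CFA, against 87.0 to 149369 CPM in the Col and 104 to 14918 CPM in the CFA vehicle mice. The regenerating muscle markers were at 2776 to 5006 CPM at 6d post-Col and 225 to 354 CPM at 5d post-CFA, and the fibroblast markers at 12034 to 20755 CPM and 1104 to 4600 CPM. The part of these markers in the difference was not tested.

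The 0.2U dose gave no call. Neither the 1C group nor the RPC group had a gene past the threshold (0% of 14493 and 0% of 14269 genes), so none of the 10 passed. At an unadjusted p under 0.05 there were 2 of 10 in 1C, *Hspa1b* and *Hspa5*, against 12.6% of all genes, and 4 of 10 in RPC, *Hspb8*, *Hspa1a*, *Hspa1b* and *Hspa5*, against 13.5%. DESeq2 called 0 of 10 in 1C and 1 of 10 in RPC, *Hspa5*. It called 360 genes higher and 159 lower in 1C, of 14493, and 189 and 254 in RPC, of 14269. *Hspa5* was at 699, 326, 490 and 314 CPM in 1C and at 412, 394, 722 and 505 CPM in RPC, above the 235 to 289 CPM of all 3 vehicle mice. Its log2 fold change was 0.81 (SE 0.307, adjusted p = 0.357) in 1C and 0.97 (SE 0.242, adjusted p = 0.265) in RPC.

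In CPM, *Hspb8* was the 1 gene below vehicle in every mouse of both 0.2U groups. It was at 283 to 497 CPM in 1C and 322 to 452 CPM in RPC against 523 to 705 CPM (-0.52, SE 0.236, and -0.57, SE 0.187). Summed fibre markers were lower too, at 76607 to 101617 CPM in 1C and 74157 to 96137 in RPC against 102601 to 153543 CPM. Per 1000 fibre marker reads, *Hspb8* overlapped vehicle in both groups. It stood at 4.60 ± 0.637 reads in 1C and 4.82 ± 0.871 in RPC, against 4.58 ± 0.528 in vehicle (SD). The median over all genes on this scale was 1.45 (1C) and 1.55 (RPC) times the vehicle mean. The part of fibre content in the *Hspb8* values was not tested. In CPM, groups did not overlap for 2 of 10 genes in 1C and 4 of 10 in RPC, against 10.3% and 12% of all genes. RPC mouse 3 stood out with 34.6 CPM of *Hspa1a*, against 6.08 to 7.23 CPM in the other 3 mice, with 31.9 CPM of *Hspa1b* against 6.41 to 8.86 CPM, and with 221 CPM of *Hsph1* against 94.1 to 117 CPM. Its *Dnajb1*, at 27.6 CPM, was within the range of its group.

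Whether the same mouse led its group differed between genes. The mouse with the highest *Hspa1b* was also the mouse with the highest *Hspa1a* in 7 of the 9 groups and with the highest *Hsph1* in 7 of 9. For *Hspa5*, *Hspb1* and *Hspb8* this held in 5 of 9 groups and for *Dnajb1* in 4 of 9. For *Hspb6*, *Hspb7* and *Cryab* it held in 2 of 9. With 3 or 4 mice in a group, some agreement is expected by chance. These counts are a description without a test, and reads of *Hspa1a* and *Hspa1b* overlap in sequence.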

How the data were processed

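The authors made TruSeq stranded poly(A) libraries from MM, 1 per mouse, sequenced single 50-base reads, aligned them to mm9 with TopHat2 and deposited raw read counts per gene symbol. HTSeq is named in the submitters' processing notes. Tool versions, the annotation and the strand setting of the counting are not given in the sources used here. The study's methods give days 1 and 14 for groups that the labels call 2d and 12d, and the labels' days are used. No 2 of the 31 libraries held identical counts. The labels do not tie libraries to cages or batches, so neither could be modelled. The p-values set a difference between groups against the spread between mice within groups. For the higher Col dose against vehicle, that difference includes the divide between libraries described above. The same holds for the interaction tests that use these comparisons.

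Counts were tested for each comparison with edgeR 4.0.16 (quasi-likelihood F test, R 4.3.3, two-sided) on genes that reached 10 counts in 3 or more libraries, with TMM scaling and Benjamini-Hochberg adjustment over all genes tested. A gene was called at an adjusted p under 0.05. The standard error was the log2 fold change divided by the root of F. RPKM used exon lengths of an mm9 annotation. All 10 genes passed the filter in every comparison. Other chaperones were named as the 3 called genes with the largest change in each direction, among those whose groups did not overlap. The 10 genes and all lists were chosen with earlier results of these data known. Reads not assigned to a gene stayed out of library sizes, and 34.6% to 47.9% of reads were listed as not uniquely aligned. The alternatives were DESeq2 1.42.0, its size factors, total counts, no filter, 1 fit over all libraries, pooled vehicles, the thresholds for DEGs (fold over 2, mean RPKM over 1), a replicate block, each mouse left out and, chosen after seeing the data, libraries poor in salivary gland markers. Each mouse was left out in turn, and the fits without mouse 4 at 2d were picked out after its values were seen. The fits were tested on simulated data.

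The r across genes of same-numbered mice was positive for every number in 2 comparisons and mixed in sign in the others between 2 groups. The 2 were 1d post-CFA against vehicle (0.118, 0.247 and 0.449) and vehicle against vehicle (0.197, 0.117 and 0.624). Some of these values are small, and the vehicle mice come from separate experiments, so no pairing is shown. A replicate block changed no call of the 10 genes in either.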

Additional observations from a re-analysis of the deposited data

Results flagged for a closer look

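Among 40 sets of 4 mice (10 genes in each of the 4 groups of 4 mice), 4 had a highest or lowest mouse whose gap to the next, divided by the range, was past Dixon's critical value. Chance alone marks about 1 in 20 such sets. In RPC mouse 3 *Hspa1a* was at 34.6 CPM (gap over range 0.960) and *Hspa1b* at 31.9 CPM (0.904), both the highest of the group. *Hspb6* was lowest in mouse 4 at 2d post-Col, at 1178 CPM (0.845), and *Hsph1* in mouse 4 at 12d post-Col, at 73.2 CPM (0.914).

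The effect on *Hspb7* differed between 6d post-Col and 5d post-CFA by 2.08 on the log2 scale in edgeR's interaction test (SE 0.537, adjusted p = 0.0323). The part of the salivary gland, fibroblast and regenerating muscle markers, which differed between these groups, was not tested.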

How the results depend on the processing

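Across 1860 values of single genes under alternatives, 1688 kept their call and its direction, 61 lost a call, 111 gained one and none of the called values changed sign. A gene that was not called has no direction counted here. DESeq2 called 1 of the 10 genes higher at 1d post-CFA, 2 lower at 5d post-CFA, 1 higher in RPC, 7 higher at 2d post-Col and 2 lower at 6d post-Col. It called 6 lower from 2d to 6d, 3 higher from 6d to 12d, 4 lower from 1d to 5d post-CFA and 2 higher in the interaction of 6d post-Col with 5d post-CFA. The fit over 31 libraries called 7 higher at 2d, 0 lower at 6d, 1 higher and 6 lower from 2d to 6d, and 4 lower from 1d to 5d post-CFA. Pooled vehicles gave 7 higher at 2d and 2 lower at 6d, libraries poor in salivary gland markers 2 lower at 6d, and the thresholds for DEGs 0 lower at 6d. Total counts moved the median of all genes to between -0.46 and 0.85 and gave 0 lower at 6d, 4 lower from 6d to 12d, 6 lower from 1d to 5d post-CFA and 6 higher in the interaction.

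With a replicate block the counts were 8 higher at 2d, 0 higher and 0 lower at 6d, 7 lower from 2d to 6d, 4 higher from 6d to 12d, 0 lower from 1d to 5d post-CFA and 0 higher in the interaction. In these comparisons mice share only a number (at 2d the r of same-numbered mice were -0.21, 0.108 and 0.0973). The cause of these shifts was not tested. At 2d the fit with the block called 2317 genes higher and 2183 lower, of 14373.

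Leaving out 1 mouse at a time gave 0 to 8 higher at 2d, 0 to 1 higher and 0 to 2 lower at 6d, 0 to 8 lower from 2d to 6d, 0 to 4 higher and 0 to 3 lower from 6d to 12d, 0 to 3 lower at 5d post-CFA, 0 to 5 lower from 1d to 5d post-CFA and 0 to 2 higher in the interaction. The count of 8 at 2d is the one without mouse 4, which was singled out by its values of these genes. In that fit 2538 genes passed as higher and 2605 as lower, of 14160.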
